A study of Mus musculus with 12 samples.

Results

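The G2 and M phase program of the mouse upper jaw was followed through 39 mitosis and spindle genes. They were taken as a list of named genes, from the kinases that start mitosis to the proteins that cut the daughter cells apart. All 39 were found by symbol among the 53801 genes of the count files, and all 39 passed the filter on low counts that left 18365 genes for testing. Bulk polyadenylated RNA came from intact maxillary prominences, the facial swellings that form the upper jaw and palatal shelves, of wild type C57BL/6 embryos. The 4 stages were E10.5 (embryonic day 10.5), then E11.5 and E12.5 and, after a gap of 2 days, E14.5. Each stage had 3 libraries, 12 in total. No allele or treatment separated the groups. Age is the only difference the labels name, except that they set the E14.5 samples apart in a block of their own. In every comparison with E14.5, age and that block cannot be told apart. RNA was pooled from 7 littermates, and the labels leave unsaid if each library had its own 7. The p-values therefore cover the variation among these 12 libraries only. Levels are CPM, counts per 1000000 counts of the library after TMM scaling, and a call is a Benjamini-Hochberg adjusted p under 0.05 over all 18365 genes in edgeR's quasi-likelihood test. In bulk tissue, fewer dividing cells and less of these transcripts per dividing cell cannot be told apart.

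A cell enters mitosis when cyclin B bound to Cdk1 is switched on by Cdc25 phosphatases, with Aurka and Plk1 acting at the centrosomes. Kinetochores then capture microtubules under the watch of the spindle checkpoint, and once every chromosome is attached Cdc20 activates the anaphase-promoting complex (APC/C), which marks cyclin B for destruction. Most genes of this program are transcribed late in the cycle, so in a tissue their RNA is commonly read as a sign of dividing cells. The embryonic face is built largely by division of neural crest mesenchyme, which later gives way to bone, cartilage and connective tissue.

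The members held their level from E10.5 to E11.5, fell at E12.5 and fell again at E14.5. Their summed level was 8441 to 9520 CPM over the 3 libraries at E10.5 and 8276 to 9237 CPM at E11.5. It was 4911 to 6082 CPM at E12.5 and 3981 to 4450 CPM at E14.5. The sums of the 2 earlier stages overlapped, and each later stage lay wholly below the stage before it. Of the 39 members, 25 had their highest mean at E10.5, 13 at E11.5 and 1, Cdc25b, at E14.5. The lowest mean was at E14.5 for 36 members, at E12.5 for Prc1 and Anln, and at E10.5 for Cdc25b.

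**Figure D1:**
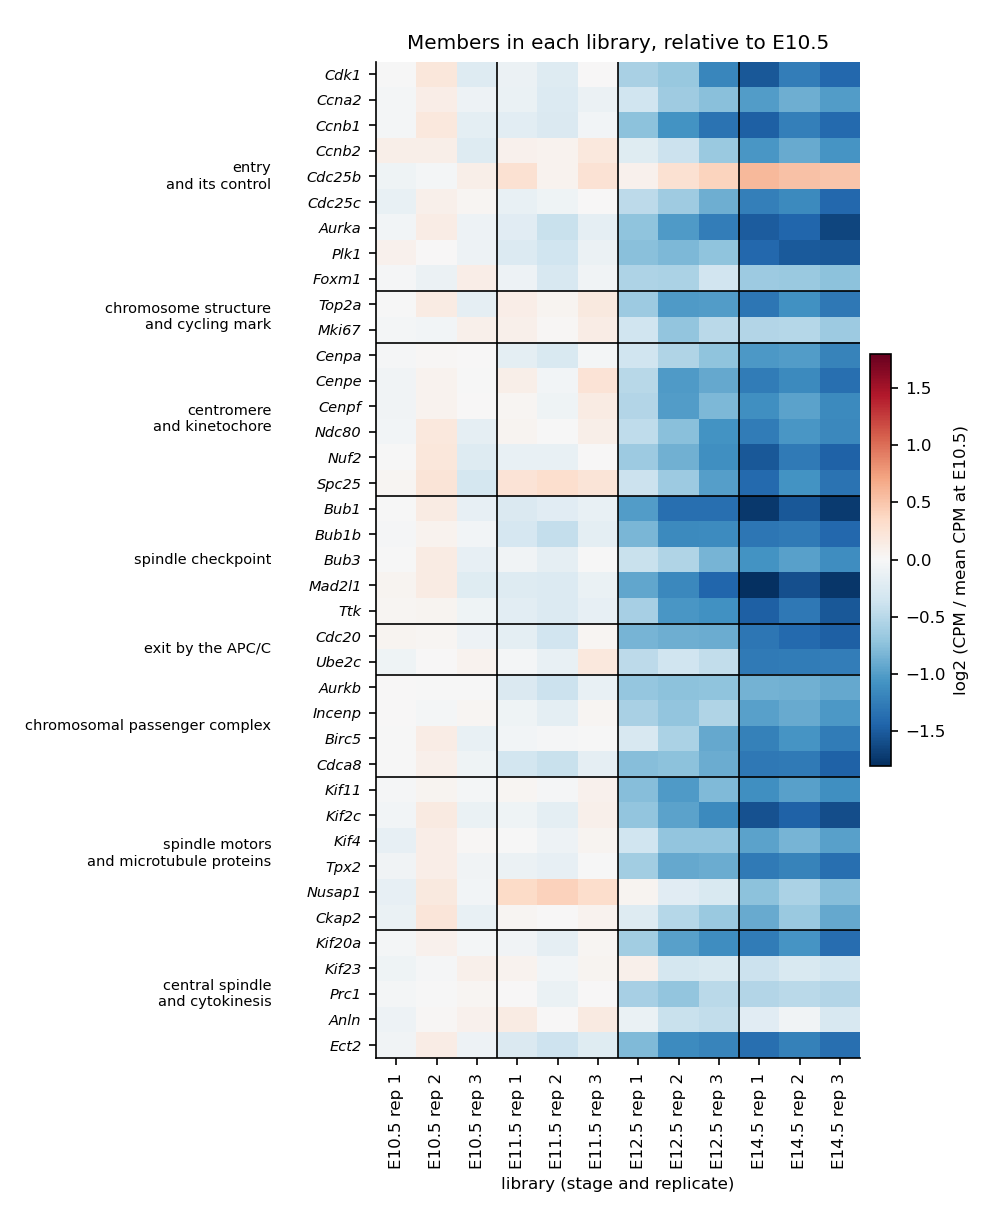
Level of each of the 39 members (rows, grouped by role) in each of the 12 libraries (columns), as log2 of CPM over the gene's mean CPM at E10.5; blue is below and red above that mean. Most rows turn blue at E12.5 and darker at E14.5, while Cdc25b turns red and Kif23, Anln and Prc1 stay pale.

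Over the whole course, E14.5 against E10.5, 37 of 39 members were lower, 1 was higher (Cdc25b) and 1 was not called (Anln). The background was 33.8% of all tested genes called lower and 36.6% called higher. In 37 members every E14.5 library lay below every E10.5 library, a pattern held by 36.2% of all tested genes. The median log2 fold change was -1.23 over the members and 0.063 over all genes. Calls with a fall of more than 2-fold numbered 26 among the members and 2310 among all 18365 tested genes. Some difference among the 4 stages was called for 39 of 39 members and for 81.6% of all genes, a background so high that the joint test says little about the list. Member values ran from -1.72 for Mad2l1 to 0.54 for Cdc25b.

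Step by step, the calls were uneven. From E10.5 to E11.5, 4 members were lower (Plk1, Bub1b, Aurkb and Cdca8), against 12.9% of all genes, and 1 was higher (Nusap1), against 12.2%. The other 34 members were not called, and the members' median of -0.07 lay near that of all genes, -0.04. From E11.5 to E12.5, 37 members were lower and none was higher in edgeR, 0 also at an unadjusted p under 0.05 and in DESeq2 and limma-voom, with a median of -0.60 against 0.064 over all genes. The background at this step was 22.2% lower and 27.1% higher. The same 37 members had no overlap between the libraries of E11.5 and E12.5, against 26.6% of all genes. From E12.5 to E14.5, which spans 2 days, 31 members were lower and 1 was higher, with a median of -0.43 against -0.01. The background was 24% lower and 23% higher, and 28 members, against 27.3% of all genes, had every E14.5 library below every E12.5 library. All 31 had also been called lower at E12.5.

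**Figure D2:**
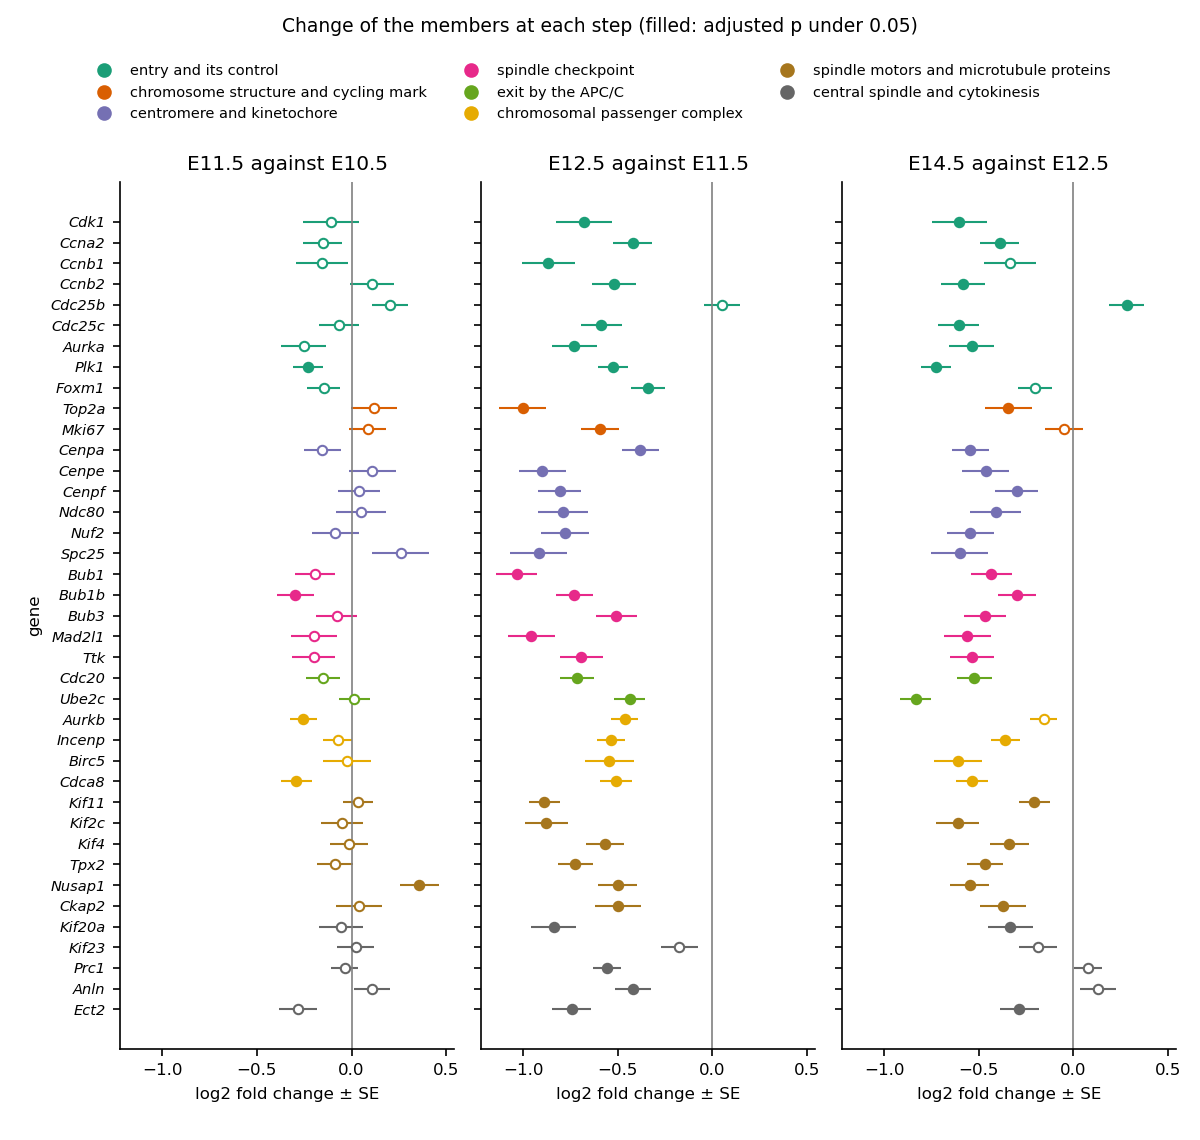
Log2 fold change of each member (rows, coloured by role) with its standard error at the 3 consecutive steps; filled points have an adjusted p under 0.05. The points scatter around 0 at E11.5, lie left of 0 for 38 of 39 members at E12.5, and lie left of 0 for 36 of 39 at E14.5.

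Scaling bears on these counts. With library totals in place of TMM factors, an alternative chosen after seeing the data, the median of all genes rose by 0.216 at E12.5 and by 0.321 from E10.5 to E14.5. Calls over all genes at E12.5 then went from 4079 lower and 4968 higher to 1880 lower and 6896 higher, and those of the whole course from 6211 lower and 6721 higher to 4117 lower and 8821 higher. The members called lower were 33 at E12.5, 26 at E14.5 and 34 over the whole course, against 10.2%, 19.5% and 22.4% of all genes. Cdc25b stayed higher over the whole course. Mki67 (log2 fold change -0.24, edgeR adjusted p = 0.0528), Prc1 (-0.19, adjusted p = 0.0745) and Kif23 (-0.02, adjusted p = 0.868) lost their whole-course call, and Anln read 0.14 (adjusted p = 0.188), with the opposite sign.

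Short sequence elements in the start regions of the members are given as a description, with no test. RefSeq promoter windows (GRCm38.p6) of 300 bases were matched for 32 of the 39 members, as 35 windows. TTTGAA, the core of the cell cycle homology region, was searched with a variant, TTTAAA, and with CCAAT, the box bound by NF-Y, on both strands. Other variants of that core, such as TTCGAA, were not searched. TTTGAA was in 77.1% of the members' windows and in 17.9% of all 32851 windows, and TTTGAA or TTTAAA was in 85.7% and 27.6%. CCAAT was in 80% of the members' windows and 37.4% of all. Counted by gene, 24 of the 32 members had TTTGAA and 25 had CCAAT. The next lines give 150 bases around the annotated start, from 100 before it to 50 from it onward, 5′ to 3′ on the gene's strand, with every match in capitals, including those read on the opposite strand. Ccnb2, Cdk1 and Plk1 were picked from the members that fell and need not represent them. Anln is the member that was not called over the whole course, and Cdc25b the member that rose.
Ccnb2, chr9:70421505-70421654, minus strand: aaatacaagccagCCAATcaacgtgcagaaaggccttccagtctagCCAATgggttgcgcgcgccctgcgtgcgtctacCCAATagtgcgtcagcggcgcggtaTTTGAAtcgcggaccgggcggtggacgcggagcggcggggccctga
Cdk1, chr10:69352863-69353012, minus strand: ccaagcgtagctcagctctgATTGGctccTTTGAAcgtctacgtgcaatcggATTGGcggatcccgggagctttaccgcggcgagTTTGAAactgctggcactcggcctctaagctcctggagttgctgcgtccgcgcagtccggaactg
Plk1, chr7:122159335-122159484, plus strand: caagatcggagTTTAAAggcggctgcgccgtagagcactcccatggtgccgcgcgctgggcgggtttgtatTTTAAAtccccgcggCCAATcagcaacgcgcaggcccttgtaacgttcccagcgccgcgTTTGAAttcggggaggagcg
Anln, chr9:22389157-22389306, minus strand: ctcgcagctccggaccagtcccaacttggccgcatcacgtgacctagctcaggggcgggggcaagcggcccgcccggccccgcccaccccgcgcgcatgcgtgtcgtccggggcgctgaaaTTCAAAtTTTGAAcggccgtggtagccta
Cdc25b, chr2:131186848-131186997, plus strand: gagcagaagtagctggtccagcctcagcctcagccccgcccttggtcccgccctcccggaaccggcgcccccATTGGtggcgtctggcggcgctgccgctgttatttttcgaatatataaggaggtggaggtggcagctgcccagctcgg
In Ccnb2, CCAAT begins 87, 54 and 21 bases before the start and TTTGAA 4 bases after it. Cdk1 has TTTGAA 71 and 15 bases before the start. Plk1 has TTTAAA 89 and 29 bases before the start and TTTGAA 30 bases after it. In Anln, TTTGAA begins 28 bases after the start, and its opposite-strand form 21 bases after it, with no CCAAT in the window. The Cdc25b window holds neither of the forms searched, TTTGAA and TTTAAA, and 1 CCAAT. Its printed stretch does hold TTCGAA, which was not counted in any window. Nuf2, Nusap1, Mad2l1 and Bub1 also lack TTTGAA and TTTAAA in their windows, and all 4 were called lower over the whole course. Kif23 and Prc1 have TTTGAA, and their falls were among the smaller ones. These matches describe letters in a window. Binding was not measured, and a link between the matches and the changes in level was not tested.

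Among the 9 genes of mitotic entry and its control, 8 were lower at E14.5 than at E10.5 and Cdc25b was higher. Cdk1 (chr10:69335146-69352938, minus strand, mm10) encodes the kinase that drives mitosis. Its level was 294, 340.0 and 252 CPM at E10.5, 274, 252 and 296 at E11.5, 198, 185 and 131 at E12.5, and 102, 125 and 111 at E14.5. Every E12.5 library lay below every E11.5 library and every E14.5 library below every E12.5 library. The log2 fold change was -0.68 ± 0.15, adjusted p = 0.0023 at E12.5 and -0.60 ± 0.15, adjusted p = 0.00459 at E14.5, and -1.39 ± 0.15, adjusted p = 2.08e-06 over the whole course. Ccnb1, the cyclin B1 partner of Cdk1, was at 389, 455 and 354 CPM at E10.5, 351, 335 and 387 at E11.5, 240.3, 189 and 159.5 at E12.5, and 144, 170.0 and 152 at E14.5. It fell at E12.5 (-0.87 ± 0.14, adjusted p = 0.000306), and the libraries of E12.5 and E14.5 overlapped (-0.34 ± 0.14, adjusted p = 0.06). Ccnb2, the other B-type cyclin, fell at both of these steps (-0.52 ± 0.12, adjusted p = 0.00262 and -0.58 ± 0.12, adjusted p = 0.00115). The log2 ratio of Ccnb1 to Ccnb2 counts was 1.62 to 1.86 at E10.5, 1.46 to 1.54 at E11.5, then 1.07 to 1.25 at E12.5, and 1.34 to 1.44 by E14.5. The cyclin A gene Ccna2 went from 261 ± 20.9 to 134 ± 6.99 CPM.

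Plk1, the polo-like kinase of centrosome maturation and cytokinesis, was at 133, 127 and 118 CPM at E10.5, 107, 98.1 and 117 at E11.5, 75.1, 72.2 and 76.6 at E12.5, and 47.6, 44.2 and 43.8 at E14.5. Its libraries did not overlap at any of the 3 steps, and it was called lower at each of them: -0.23 ± 0.08, adjusted p = 0.046 at E11.5, -0.53 ± 0.08, adjusted p = 0.000207 at E12.5 and -0.72 ± 0.08, adjusted p = 1.23e-05 at E14.5. For the E11.5 step the adjusted p of Plk1 ran from 0.0283 to 0.743 over 22 alternatives. Aurka, the centrosomal Aurora kinase, had the largest fall of this group, from 138, 156 and 134 CPM at E10.5, 124, 108 and 127 at E11.5, 86.3, 70.0 and 60.2 at E12.5, and 50.4, 53.1 and 45.6 at E14.5. Over the whole course it fell 2.87-fold (-1.52 ± 0.12, adjusted p = 1.43e-07). Foxm1 encodes the forkhead factor that activates many late-cycle genes. It read 98.4, 93.0 and 109 CPM at E10.5, 93.5, 82.2 and 95.5 at E11.5, 68.2, 67.4 and 78.5 at E12.5, and 63.8, 62.7 and 59.7 at E14.5, and fell less than most members (-0.69 ± 0.09, adjusted p = 1e-05), with the call at E12.5 (-0.34 ± 0.09, adjusted p = 0.00623) and not at E14.5 (-0.20 ± 0.09, adjusted p = 0.0737).

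The Cdc25 phosphatases, which remove the phosphates that hold Cdk1 inactive, went opposite ways. Cdc25b (chr2:131186949-131198497, plus strand) encodes the phosphatase thought to act first on Cdk1 at the centrosome. Its level was 25.5, 26.3 and 29.0 CPM at E10.5, 32.5, 28.2 and 32.3 at E11.5, 28.4, 32.5 and 35.4 at E12.5, and 40.5, 38.6 and 38.0 at E14.5. All 3 E14.5 libraries stood above all libraries of the earlier stages, which overlapped each other. It was higher over the whole course (0.54 ± 0.10, adjusted p = 0.000194) and at E14.5 against E12.5 (0.28 ± 0.09, adjusted p = 0.0254). The later call was lost when E12.5 replicate 1 (log2 fold change 0.18, adjusted p = 0.137), E12.5 replicate 2 (0.28, 0.0529), E14.5 replicate 1 (0.27, 0.0771) or E14.5 replicate 2 (0.29, 0.0548) was left out, and over its 21 alternatives the adjusted p ran from 0.00507 to 0.374. Cdc25c, the phosphatase that acts in the nucleus at mitotic onset, was at 47.6, 55.1 and 53.2 CPM at E10.5, 47.1, 49.1 and 52.4 at E11.5, 37.5, 33.2 and 28.3 at E12.5, and 22.1, 23.4 and 19.5 at E14.5. It fell at E12.5 and at E14.5 with no overlap, and the whole change was -1.26 ± 0.11, adjusted p = 2.79e-07. The log2 ratio of Cdc25b to Cdc25c counts was -1.07 to -0.88 at E10.5, -0.80 to -0.54 at E11.5, then -0.40 to 0.32 at E12.5, and 0.72 to 0.96 by E14.5. Per kilobase of exon, Cdc25b was the lowest of the 39 members at E10.5, at 7.22 CPM per kb, and ranked 31 of 39 at E14.5, at 10.5 CPM per kb.

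**Figure D3:**
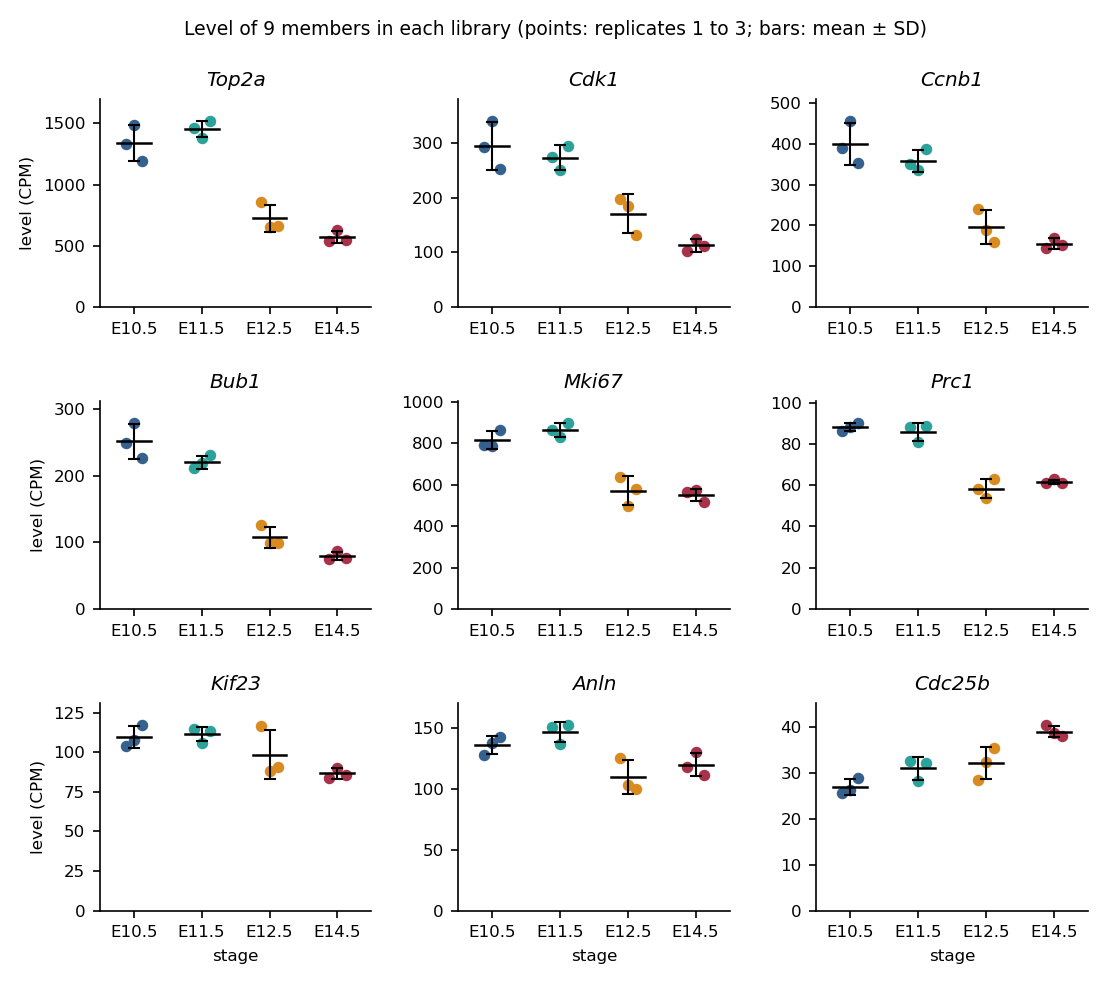
Level in CPM (vertical axis, from 0) of 9 members at each stage (horizontal axis); points are the 3 libraries, and bars the mean with the SD. Top2a, Cdk1, Ccnb1 and Bub1 step down between E11.5 and E12.5, Mki67 and Prc1 step down at E12.5 and stay level, Kif23 and Anln move little, and Cdc25b is highest at E14.5.

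Top2a and Mki67 both fell at E12.5, and only Top2a was called lower again at E14.5. Top2a (chr11:98992943-99024189, minus strand), the topoisomerase that untangles sister chromatids, was at 1334, 1491 and 1194 CPM at E10.5, 1460.1, 1385 and 1518 at E11.5, 855, 658 and 666 at E12.5, and 542, 628 and 547 at E14.5. The E11.5 and E12.5 libraries did not overlap (-1.002 ± 0.12, adjusted p = 5.15e-05), and neither did those of E12.5 and E14.5 (-0.34 ± 0.12, adjusted p = 0.0336). Mki67 (chr7:135689784-135716361, minus strand) encodes Ki-67, a coat of mitotic chromosomes used as a mark of cycling cells. Its level was 794, 785 and 866 CPM at E10.5, 865, 830.2 and 898 at E11.5, 636, 499 and 581 at E12.5, and 566, 573 and 519 at E14.5. The E12.5 and E14.5 libraries overlapped, and the step between them was not called (-0.05 ± 0.10, adjusted p = 0.714), after a fall at E12.5 (-0.60 ± 0.10, adjusted p = 0.000415). In the comparison of consecutive steps, both genes fell more at E12.5 than at E14.5 (difference of log2 fold changes 0.66 ± 0.21, adjusted p = 0.0413 for Top2a, and 0.55 ± 0.17, adjusted p = 0.0371 for Mki67). The step to E14.5 spans 2 days. This call was made for 6 members, against 10.1% of all genes, and for 2 to 16 with 1 library left out. The log2 ratio of Mki67 to Top2a counts was -0.92 to -0.46 at E10.5 and -0.13 to 0.06 at E14.5. Per kilobase of exon, Top2a was the highest member at every stage, at 149 CPM per kb at E10.5 and 63.5 CPM per kb at E14.5.

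All 6 centromere and kinetochore members were lower at E12.5 and again at E14.5. Nuf2, a subunit of the Ndc80 complex that holds the ends of microtubules, fell most, from 159, 183 and 136 CPM at E10.5, 145, 145 and 160.2 at E11.5, 101, 87.3 and 73.9 at E12.5, and 55.4, 66.1 and 58.3 at E14.5. Both later stages lay below the stage before without overlap, and the whole change was -1.41 ± 0.13, adjusted p = 3.99e-07. Cenpf, a large kinetochore protein that peaks in G2 and M, fell least of the 6 (-1.07 ± 0.11, adjusted p = 1.69e-06). Its level was 322, 349 and 335 CPM at E10.5, 345, 318 and 371 at E11.5, 232, 167 and 191 at E12.5, and 155, 173 and 151 at E14.5, with E12.5 replicate 2 at 167 CPM inside the range of E14.5. Ndc80 and Spc25, 2 further subunits of the Ndc80 complex, also fell (-1.15 ± 0.13, adjusted p = 4.46e-06 and -1.26 ± 0.15, adjusted p = 6.52e-06). So did the kinetochore motor Cenpe (-1.25 ± 0.13, adjusted p = 1.08e-06) and Cenpa, the histone variant that marks centromeres (-1.08 ± 0.10, adjusted p = 4.52e-07). Spc25 read 116 to 170.0 CPM at E10.5 and 170 to 179 CPM at E11.5, a difference that was not called (0.26 ± 0.15, adjusted p = 0.232).

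The spindle checkpoint genes held the 2 largest falls of the 39 members over the whole course. Mad2l1, whose protein Mad2 restrains Cdc20 until chromosomes are attached, was at 272, 290.1 and 225 CPM at E10.5, 223, 221 and 242 at E11.5, 138, 117 and 97.9 at E12.5, and 73.5, 87.7 and 78.1 at E14.5. E14.5 was 3.29-fold below E10.5 (-1.72 ± 0.13, adjusted p = 7.1e-08). Bub1 (chr2:127801122-127831865, minus strand), the checkpoint kinase at kinetochores, went from 249.9, 279 and 227 CPM at E10.5, 211, 219.6 and 231 at E11.5, 126, 98.6 and 98.7 at E12.5, and 75.6, 87.1 and 76.4 at E14.5. Its fall at E12.5 (-1.03 ± 0.11, adjusted p = 1.6e-05) was the largest of any member at that step, and with the E12.5 libraries at 98.6 to 126 CPM it lay far below the 211 CPM of the lowest E11.5 library. Bub3, which carries Bub1 and BubR1 to kinetochores, fell least in this group, from 261, 290.1 and 237 CPM at E10.5, 252, 234 and 260.3 at E11.5, 198, 179.9 and 147 at E12.5, and 125, 134 and 121 at E14.5 (-1.05 ± 0.11, adjusted p = 1.53e-06). The log2 ratio of Bub1 to Bub3 counts was -0.06 in all 3 E10.5 libraries and -0.87 to -0.57 at E12.5. Bub1b, which encodes BubR1, was also called lower at E11.5 (-0.30 ± 0.10, adjusted p = 0.0395), a call lost when any 1 of the E10.5 libraries was left out. Ttk, the kinase Mps1, fell at E12.5 and E14.5 (whole course -1.43 ± 0.12, adjusted p = 1.81e-07).

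Both genes of mitotic exit were lower at E12.5 and again at E14.5. Cdc20, the substrate receptor of the APC/C, read 239, 235 and 216 CPM at E10.5, 204, 182 and 236 at E11.5, 129, 125 and 124 at E12.5, and 93.1, 87.4 and 83.2 at E14.5. Neither step left any overlap (-0.72 ± 0.09, adjusted p = 6.95e-05 at E12.5 and -0.52 ± 0.09, adjusted p = 0.000477 at E14.5). Ube2c, the ubiquitin-conjugating enzyme of the APC/C, was at 153, 163 and 168 CPM at E10.5, 158, 147 and 183 at E11.5, 116, 126 and 119 at E12.5, and 66.9, 67.4 and 68.0 at E14.5. Its fall at E14.5 (-0.83 ± 0.08, adjusted p = 5.39e-06) was the largest of any member at that step, with the 3 libraries within 66.9 to 68.0 CPM, while its fall at E12.5 was -0.44 ± 0.08, adjusted p = 0.000892. The difference between these 2 steps of Ube2c missed the threshold (-0.40 ± 0.14, adjusted p = 0.059). Of the exon bases of Ube2c, 22.8% overlap Tnnc2, a troponin gene on the opposite strand, and the library kit does not mark strand.

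The chromosomal passenger complex, which corrects wrong attachments and steers cytokinesis, was lower in all 4 members at E12.5. Aurkb, its kinase, was at 101, 99.5 and 98.8 CPM at E10.5, 83.4, 76.5 and 90.6 at E11.5, 61.8, 59.6 and 60.3 at E12.5, and 55.5, 54.5 and 52.9 at E14.5. The libraries did not overlap at any step. It was lower at E11.5 (-0.25 ± 0.07, adjusted p = 0.0171) and at E12.5 (-0.46 ± 0.07, adjusted p = 0.00022), and the further fall at E14.5 was not called (-0.16 ± 0.07, adjusted p = 0.0825). Cdca8, the borealin subunit, was called lower at every step, from 136, 145 and 129.6 CPM at E10.5, 109, 104 and 122 at E11.5, 80.1, 81.7 and 73.7 at E12.5, and 56.1, 56.4 and 50.1 at E14.5 (-1.34 ± 0.08, adjusted p = 1.7e-08). For the E11.5 step the adjusted p over 22 alternatives ran from 0.00508 to 0.636 for Aurkb and from 0.00885 to 0.451 for Cdca8. Incenp, the scaffold (-0.97 ± 0.08, adjusted p = 1.26e-07), and Birc5, which encodes survivin (-1.18 ± 0.13, adjusted p = 2.6e-06), were lower at both later steps. Between the 2 Aurora kinases, the log2 ratio of Aurka to Aurkb counts was 0.43 to 0.65 at E10.5, 0.49 to 0.57 at E11.5, then 0.00 to 0.48 at E12.5, and -0.21 to -0.04 by E14.5.

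All 6 spindle motors and microtubule proteins were lower at E12.5 and at E14.5. Kif2c, a kinesin that takes microtubules apart at kinetochores, fell most, from 171, 198 and 163 CPM at E10.5, 168, 157 and 188 at E11.5, 108, 90.8 and 80.2 at E12.5, and 59.6, 64.8 and 58.5 at E14.5 (-1.54 ± 0.11, adjusted p = 7.52e-08). Kif11, the motor that pushes spindle poles apart, fell at E12.5 (-0.89 ± 0.08, adjusted p = 5.69e-06) and only at the edge of the threshold at E14.5 (-0.21 ± 0.08, adjusted p = 0.0496), when its libraries overlapped. Tpx2, which activates Aurka on the spindle, changed by -1.28 ± 0.10, adjusted p = 7.5e-08, the chromosome-bound motor Kif4 by -0.92 ± 0.10, adjusted p = 2.6e-06 and the microtubule-associated Ckap2 by -0.83 ± 0.12, adjusted p = 3.77e-05, each over the whole course. Nusap1, which bundles microtubules near chromosomes, was the only member called higher at E11.5. Its level was 142, 178 and 151 CPM at E10.5, 200.5, 209 and 195 at E11.5, 162, 136 and 129.8 at E12.5, and 93.9, 106 and 92.3 at E14.5. Every E11.5 library lay above every E10.5 library (0.36 ± 0.10, adjusted p = 0.0213), and every later step was downward without overlap. The call at E11.5 was lost without E10.5 replicate 1 (0.30, adjusted p = 0.0908), E10.5 replicate 3 (0.33, 0.0616), or, at E11.5, without replicate 1 (0.37, 0.0576) or replicate 2 (0.33, 0.0771), and over its 22 alternatives the adjusted p ran from 0.00444 to 0.254.

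The genes of the central spindle and cytokinesis divided. Their median whole-course log2 fold change was -0.52, against -1.43 in the checkpoint group, with no test between the groups. The roles were assigned with earlier results of these data known. Ect2, which activates RhoA at the cleavage furrow, went from 169, 194 and 167 CPM at E10.5, 147, 137 and 152 at E11.5, 102, 80.6 and 77.7 at E12.5, and 68.8, 75.7 and 68.7 at E14.5 (-1.31 ± 0.10, adjusted p = 1.28e-07). Kif20a, a motor that brings passenger proteins to the midzone, fell at E12.5 and at E14.5 (whole course -1.23 ± 0.12, adjusted p = 7.98e-07). Prc1, the protein that bundles midzone microtubules, read 86.2, 88.0 and 90.0 CPM at E10.5, 88.2, 80.9 and 88.5 at E11.5, 58.1, 53.8 and 63.1 at E12.5, and 60.9, 62.8 and 61.1 at E14.5. It fell at E12.5 (-0.56 ± 0.07, adjusted p = 7.75e-05), and the E12.5 and E14.5 libraries then overlapped (0.08 ± 0.07, adjusted p = 0.402).

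Kif23 and Anln moved least. Kif23, a motor subunit of centralspindlin, was at 104, 108 and 117 CPM at E10.5, 114, 106 and 114 at E11.5, 117, 88.2 and 90.9 at E12.5, and 84.0, 90.3 and 85.4 at E14.5. E12.5 replicate 1, at 117 CPM, lay above all E11.5 libraries, while the other E12.5 libraries lay below them. No single step was called, and E14.5 was below E10.5 without overlap (-0.34 ± 0.10, adjusted p = 0.00715). Anln (chr9:22332012-22389188, minus strand) encodes anillin, the scaffold of the contractile ring. Its level was 128, 137 and 142 CPM at E10.5, 150.2, 137 and 152 at E11.5, 125, 103 and 99.8 at E12.5, and 118, 130.0 and 111 at E14.5. It fell at E12.5 (-0.42 ± 0.10, adjusted p = 0.003), stood slightly higher at E14.5 with overlap (0.13 ± 0.10, adjusted p = 0.283), and E14.5 overlapped E10.5 (-0.18 ± 0.10, adjusted p = 0.104). Without E12.5 replicate 1 the whole-course difference of Anln was called (log2 fold change -0.21, adjusted p = 0.0268), and over its 21 alternatives the adjusted p ran from 0.0268 to 0.632. Relative to Top2a, the log2 ratio of Anln counts was -3.44 to -3.07 at E10.5 and -2.30 to -2.20 at E14.5, and that of Kif23 to Kif11 went from between -1.23 and -1.03 to between -0.46 and -0.41.

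The timing of the fall was tested as the difference of consecutive steps, which share their middle stage. A deviation in the libraries of that stage moves both steps, in opposite directions. For 22 members the change at E12.5 was below the change at E11.5, against 11% of all genes. In the other direction edgeR called 0 members, and 0 had an unadjusted p under 0.05. Kif11 had the smallest p of the 22 (difference -0.92 ± 0.14, adjusted p = 0.000534), and Spc25 the largest difference (-1.18 ± 0.26, adjusted p = 0.00578). The count was 0 with the share of alignments outside genes in the model and 14 with library totals in place of TMM factors. It was 7 without E11.5 replicate 3, 11 without E11.5 replicate 1 and 33 without E12.5 replicate 1. For 6 members (Top2a, Mki67, Bub1, Kif11, Prc1 and Anln) the change at E14.5 was above that at E12.5, against 10.1% of all genes. These steps differ in length, as the one to E14.5 spans 2 days. Prc1 (0.64 ± 0.13, adjusted p = 0.00346) and Kif11 (0.68 ± 0.14, adjusted p = 0.00421) had the smallest p. That count was 2 with the share outside genes in the model, 16 without E12.5 replicate 1, 2 without E11.5 replicate 1, E11.5 replicate 3, E12.5 replicate 2 or E14.5 replicate 2, and 3 without E11.5 replicate 2 or E12.5 replicate 3. 

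The few calls at E11.5 rested on single libraries too. Leaving out replicate 1 or replicate 2 of E10.5, or replicate 1 or replicate 2 of E11.5, left none of the 4 lower calls, and 2 were made without any 1 of the E14.5 libraries.

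Within a stage, most members were highest in the same library. At E12.5, replicate 1 was the highest library for 32 of 39 members and for 34.4% of all tested genes, and replicate 3 the lowest for 23 members and 35.8% of all genes. Replicate 3 of E11.5 was highest for 35 members and 34.0% of all genes, replicate 2 of E14.5 for 33 and 40.9%, and replicate 2 of E10.5 for 27 and 36.9%. Over the 12 libraries, which share stage and depth, Pearson's r of log2 levels between members had a median of 0.95 over 741 pairs. After each stage mean was taken out the median was 0.64, with pairs from -0.78 to 0.99, and the same was not computed over all genes. Cdc25b ran against the rest, with r = -0.83 to the mean of the other 38 members, followed by Anln at 0.75, Kif23 at 0.87, Nusap1 at 0.88 and Prc1 at 0.88.

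The share of alignments outside annotated genes moved with the stages and with the members. It was 2.67%, 1.92% and 4.88% in E10.5 replicates 1, 2 and 3, 2.16% to 2.42% at E11.5, then 5.03% to 5.43% at E12.5, and 5.78% to 6.21% by E14.5. With the share outside genes as a covariate, 4 members (Bub1, Incenp, Kif11 and Prc1) kept a lower call at E12.5. Of all genes, 286 were called lower and 407 higher. The estimates of all 39 members were then below 0, with a median of -0.50, and the median standard error went from 0.10 to 0.18. The members called lower were 24 at E14.5, where 4047 of all 18365 genes were lower, and 36 over the whole course, where 3909 were. Cdc25b was no longer called over the whole course (log2 fold change 0.36, edgeR adjusted p = 0.109). The part of this share in the members' fall was not tested beyond that model.

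**Figure D4:**
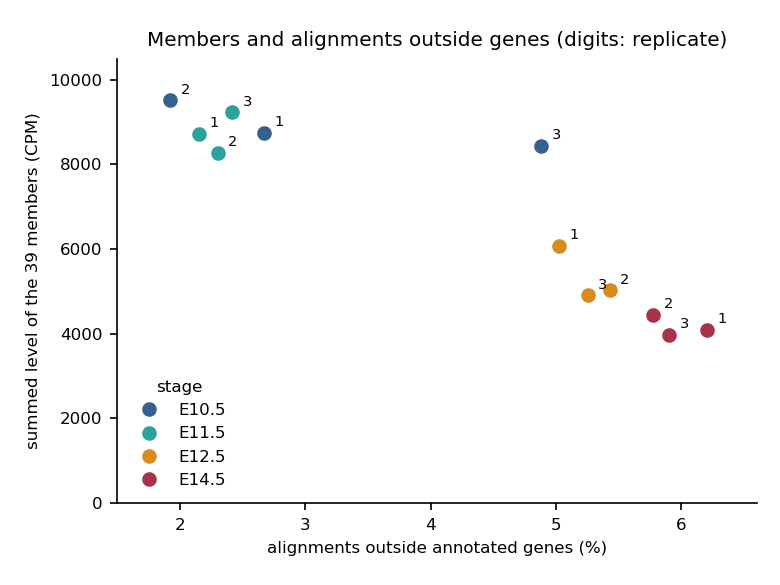
Summed level of the 39 members in CPM (vertical axis, from 0) against the percentage of alignments outside annotated genes (horizontal axis) in each library, coloured by stage and numbered by replicate. The libraries of E12.5 and E14.5, with shares of 5.03% to 6.21%, have the lower sums. E10.5 replicate 3, at 4.88%, lies apart from the other libraries of its stage on the horizontal axis, with a sum of 8441 CPM.

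Other cell division genes, in lists drawn up around the members, were mostly lower at E12.5 and E14.5. Of 66 further G2 and M genes, 6 were lower at E11.5, a share below the 12.9% of all genes. At E12.5 60 were lower, against 22.2% of all genes, and at E14.5 40, against 24%. Over the whole course 64 were lower, against 33.8%, and 2 higher, a share far below the 36.6% of all genes, with a median of -1.09. The kinesin Kif18a fell at E12.5 (-1.13 ± 0.13, adjusted p = 3.79e-05), as did Cenpw, a centromere protein (-1.11 ± 0.17, adjusted p = 0.000274), and the chromatin protein Hmgb2 (-1.09 ± 0.16, adjusted p = 0.000139). At E14.5 the largest falls were in Cks2 and Cks1b, small partners of Cdk1 (-1.37 ± 0.18, adjusted p = 5.18e-05 and -0.96 ± 0.17, adjusted p = 0.000405), and in Cenpw (-1.03 ± 0.18, adjusted p = 0.000473). At E11.5 the largest falls were in the centrosomal kinase Nek2 (-0.60 ± 0.11, adjusted p = 0.00111), Cep55 of the midbody (-0.43 ± 0.09, adjusted p = 0.00406) and Zwilch of the kinetochore (-0.38 ± 0.09, adjusted p = 0.00686). The 2 that rose were Hjurp, the chaperone that loads Cenpa, from 278 ± 65.6 to 381 ± 17.6 CPM (0.45 ± 0.15, adjusted p = 0.0179), and Pkmyt1, a kinase that holds Cdk1 inactive, from 15.0 ± 2.68 to 18.6 ± 0.487 CPM (0.31 ± 0.12, adjusted p = 0.0265).

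Of 16 APC/C genes, 0 were called at E11.5 in edgeR (1 at an unadjusted p under 0.05, higher). The background there was 12.9% lower and 12.2% higher. At E12.5 12 were lower, against 22.2% of all genes. At E14.5 10 were lower, against 24%, and 1 higher, against 23%. Over the whole course 14 were lower, against 33.8% of all genes, with a median of -0.66. The 1 higher gene at E14.5 was the scaffold subunit Anapc1 (0.27 ± 0.08, adjusted p = 0.0178), and Anapc1 and Anapc5 were not called over the whole course. Ube2s, which extends ubiquitin chains after Ube2c has started them, fell at E14.5 (-0.97 ± 0.11, adjusted p = 1.21e-05), as did the subunits Anapc13 (-1.36 ± 0.21, adjusted p = 0.000162) and Anapc15 (-0.98 ± 0.18, adjusted p = 0.000546). At E12.5 the largest falls were in Anapc10 (-0.58 ± 0.13, adjusted p = 0.0026), Cdc27 (-0.56 ± 0.11, adjusted p = 0.000922) and Anapc15 (-0.49 ± 0.17, adjusted p = 0.0294).

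For the 45 genes that copy DNA, 9 were lower at E11.5, against 12.9% of all genes, 42 at E12.5 (22.2%) and 31 at E14.5 (24%). Over the whole course 44 were lower, against 33.8% of all genes, with a median of -1.21. The sliding clamp Pcna (-1.16 ± 0.17, adjusted p = 0.000175), the ribonucleotide reductase subunit Rrm2 (-1.07 ± 0.09, adjusted p = 3.75e-06) and the licensing inhibitor Gmnn (-1.07 ± 0.15, adjusted p = 0.000102) fell most at E12.5. At E11.5 the largest falls were in Fen1 (-0.88 ± 0.25, adjusted p = 0.0195), whose level was only 3.91 CPM at E10.5, the origin recognition subunit Orc1 (-0.77 ± 0.14, adjusted p = 0.00119) and cyclin E1, Ccne1 (-0.64 ± 0.08, adjusted p = 9.86e-05). At E14.5 the falls included those of Fen1 (-2.16 ± 0.28, adjusted p = 4.39e-05) and of the helicase subunit Gins1 (-0.85 ± 0.11, adjusted p = 4.89e-05). No test compared these lists with the members.

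**Figure D5:**
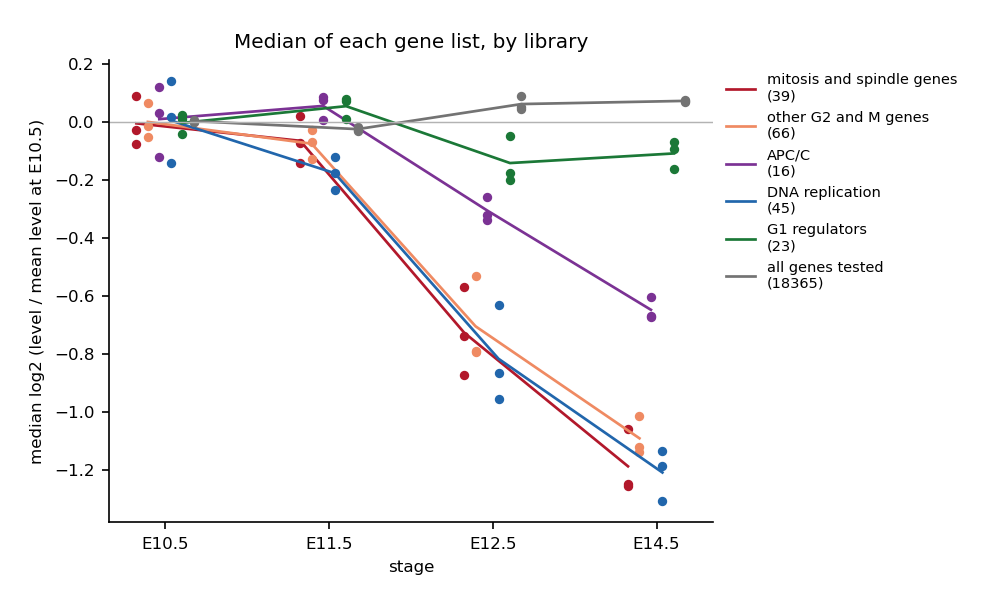
Median over each gene list (with its number of tested genes) of log2 of the level over the gene's mean at E10.5, for each library (points) and as stage means (lines), by stage. The medians of the members, the other G2 and M genes and the replication genes fall together at E12.5 and E14.5, and that of the APC/C genes falls less. The median of the G1 regulators stays close to its E10.5 level, although single G1 regulators were called in both directions. The median of all genes stays near 0.

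Markers of other cells in the tissue moved over the same stages, and their part in the members' fall was not tested. The summed level of 8 skeletal muscle markers was 14.7 to 21.5 CPM at E10.5, 22.8 to 38.4 at E11.5, then 151 to 306 at E12.5, and 1513 to 1909 by E14.5. At E12.5 8 of 8 rose, against 27.1% of all genes called higher, and at E14.5 again 8 of 8, against 23%. The sum of 6 bone markers, of which 5 were tested, was 20.2 to 23.0 CPM at E10.5, 75.5 to 96.8 at E11.5, then 65.8 to 97.3 at E12.5, and 1579 to 2104 by E14.5. Of these 5, 2 were lower and 2 higher at E11.5, against 12.9% and 12.2% of all genes. At E12.5 2 of 5 were higher, against 27.1%, and at E14.5 5 of 5, against 23%. The 7 facial mesenchyme markers summed to 1185 to 1576, 1876 to 2020, 1154 to 1429 and 1126 to 1206 CPM at the 4 stages, so markers of the labelled tissue were detected at every stage. Over the whole course 6 of these 7 were lower and 1 higher. At E12.5, the step of the members' main fall, 5 of 5 cartilage markers (median log2 fold change 1.42), 6 of 6 for endothelium (0.84) and 5 of 6 for leukocytes (1.09) were also higher, against 27.1% of all genes. Other lists were mixed at that step. Facial mesenchyme markers had 3 lower and 1 higher of 7, surface epithelium 2 lower and 1 higher of 6, and erythroid markers 3 lower and 2 higher of 9. The share of all genes called lower was 22.2%. Of 7 neuron markers, 3 were higher. Over the whole course, against 36.6% of all genes called higher and 33.8% lower, 4 of 6 for surface epithelium, 6 of 6 for endothelium and 6 of 6 for leukocytes were higher, and 6 of 7 for neurons were lower. Erythroid markers had 4 lower and 3 higher of 9, and cartilage markers, of which 3 of 5 had been lower at E11.5, 1 lower and 2 higher of 5. Matn1 of cartilage had no count at E11.5 (3 counts in the shallowest of these libraries are 0.0986 CPM), and no other marker was at 0 over a whole stage.

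Counting limits touch a few members. Exons of 13 members overlap another gene, and for 6 of them over 10% of exon bases do: Ccna2, Cdc25c, Ube2c, Kif4, Kif20a and Prc1. Ccnb1, Ccnb2 and Kif4 also have a named pseudogene, so their reads may have been split or left out. Depth was 28.3e6 to 33.9e6 counts in genes per library, and the members had 711 to 44651 counts in a library.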

How the data were processed

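Total RNA was taken with Trizol, per the labels' protocols, and poly-T selected libraries came from an NEBNext Ultra kit that leaves strand unmarked. The submitters' processing notes list HTSeq 0.12.4, STAR 2.7.3a, FastQC and mm10 with no role stated. The strand setting and annotation release of the counting were not given in the sources used. The authors deposited raw counts, whole numbers for each Ensembl gene. The 5 closing entries for alignments given to no gene, 14.3% to 18.6% of each file, entered neither library sizes nor tests. Reads carry no molecular identifiers. The title of E14.5 replicate 1 names 2 parts, used here as 1 library. Symbols and coordinates come from GENCODE M21 (mm10), in which 53706 of 53801 identifiers had a symbol.

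Counts were fitted in R 4.3.3 with edgeR 4.0.16: filterByExpr with a minimum count of 10, TMM scaling, 1 mean per stage, all 12 libraries, 8 residual degrees of freedom, biological coefficient of variation 0.142, quasi-likelihood F-tests and Benjamini-Hochberg adjustment over 18365 genes at 0.05. Standard errors are the log2 fold change over the root of F. The fit was tested on simulated data. Libraries of a stage differed beyond sampling noise (chi-square per degree of freedom at least 4.69). The members, their roles and the lists were chosen with earlier results of these data known.

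Values in every library are given, within each role, for the members with the largest and smallest whole-course change, for members that went against the majority or were not called over the whole course, and for Mki67, Top2a, Cdk1, Ccnb1, Plk1 and Foxm1. Cdc25c, Bub1, Prc1 and Kif23 were added after their values were seen. From each other list, up to 3 called genes with the largest change per step are named, and Hjurp, Pkmyt1, Anapc1 and Anapc5 were named after their values were seen. 1 gene that this rule names is not reported here. Alternatives were DESeq2 size factors, no filter, DESeq2 1.42.0, limma-voom (limma 3.58.1), other sets of libraries, replicate number as a block, a covariate for alignments outside genes, a minimum change of 1.2-fold, each library left out, and, added after the data were seen, library totals alone.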

Additional observations from a re-analysis of the deposited data

How the results depend on the processing

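Counts of members not named here stayed within 1.5 times their value in every setting run. The number lower at E11.5 was 4, and was 2 with no filter, 1 without the E14.5 block, 0 against a minimum change of 1.2-fold, 2 with library totals alone, and 0 to 4 with 1 library left out. The 1 higher at E11.5 was 0 with the share outside genes as a covariate and against a minimum change, and 0 to 1 with 1 library left out. The 37 lower at E12.5 were 4 with that covariate. The 31 lower at E14.5 were 18 against a minimum change, and 22 to 32 with 1 library left out. The 1 higher at E14.5 was 0 with no filter, with the covariate and against a minimum change, and 0 to 1 with 1 library left out. The 1 higher over the whole course was 0 with the covariate. The 22 members whose change at E12.5 was below that at E11.5 were 0 with the covariate, 14 against a minimum change, 14 with library totals alone, and 7 to 33 with 1 library left out. The 6 whose later step was above the earlier one were 11 with DESeq2, 2 with the covariate, 2 against a minimum change, and 2 to 16 with 1 library left out. No called value changed sign, and the causes of these shifts were not tested. With replicate number as a block the counts of members lower at E14.5 moved from 31 to 29, and the others did not move. The replicate numbers were not treated as pairs, since same-numbered libraries of different stages correlated at -0.119 to 0.177 after stage means were removed, and others at -0.228 to 0.228. Comparisons with E14.5 could not be made without the E14.5 block. With 711 counts or more for each member in each library, the spread between libraries and not counting limits these tests.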

Other observations

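The G1 regulators, genes that govern the decision to divide, were called in both directions. Of 23 tested, 10 were lower and 10 higher at E14.5 than at E10.5, against 33.8% and 36.6% of all genes, with 5 lower and 4 higher at E11.5 (12.9% and 12.2% of all genes), 9 lower and 4 higher at E12.5 (22.2% and 27.1%) and 7 lower and 7 higher at E14.5 (24% and 23%). Among inhibitors of cyclin-dependent kinases, Cdkn2c rose from 3.39 ± 0.09 to 20.8 ± 1.1 CPM (mean ± SD, n = 3; log2 fold change 2.61 ± 0.15, edgeR adjusted p = 9.24e-09), Cdkn1c from 114 to 294 CPM (1.37 ± 0.10, adjusted p = 6.44e-08) and Cdkn1a from 20.8 to 59.4 CPM (1.51 ± 0.20, adjusted p = 1.58e-05). Cdkn1a read 14.8, 13.9 and 11.2 CPM at E11.5 and 10.3, 22.0 and 13.0 at E12.5. It was lower at E11.5 (-0.65 ± 0.21, adjusted p = 0.0358), not called at E12.5 (adjusted p = 0.483) and higher at E14.5 (1.97 ± 0.21, adjusted p = 7.79e-06). The pocket protein gene Rbl2 rose at every step, from 7.39 to 29.7 CPM over the course (2.01 ± 0.11, adjusted p = 4.17e-09). Cdk4, the kinase of cyclin D, fell from 1171 to 421 CPM (-1.47 ± 0.12, adjusted p = 2.26e-07), and the repressor E2f7 fell at E12.5 (-0.79 ± 0.08, adjusted p = 1.24e-05). Cdkn2b was higher at E11.5 (2.17 ± 0.49, adjusted p = 0.00601) at a mean of 1.38 CPM against 0.306 CPM at E10.5. Cdkn2a had no count at E10.5 and was not tested.

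Outside all cell division lists used here, the 10 genes whose log2 level over the 12 libraries correlated best with the mean standardised profile of the members were Dbr1 (Pearson's r = 0.997), Eya3, Wdr48, Tdg, Ncbp3, Ptbp2, Zfp326, Rnf114, Hmgcs1 and Rbbp4 (r = 0.990). These points share stage and depth, and the genes were ranked by this value, so it is given as a description. Mean levels fell from 37.8 to 17.7 CPM for Dbr1 and from 317 to 102 CPM for Ptbp2 between E10.5 and E14.5.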
